A study of Mus musculus with 6 samples.

Results

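Genes of the early oligodendrocyte lineage are the subject here: 9 genes named as markers of oligodendrocyte precursor cells, found by gene symbol among the 54429 rows of each count file. All 9 were found, all 9 passed the filter on low counts, and 24419 genes were tested in all. They fall into 6 genes of the precursor stage (Pdgfra, Cspg4, Lhfpl3, Matn4, C1ql1 and Pcdh15) and 3 genes of cells already committed to become oligodendrocytes (Gpr17, Neu4 and Bmp4). The libraries were bulk total RNA of mouse prefrontal cortex from animals 6 to 8 weeks old. For 3 libraries the cortex had received AAV9, a serotype of adeno-associated virus used for gene delivery, with a short hairpin RNA against Kmt5b (shRNA_Kmt5b-AAV9), and for 3 others AAV9 with green fluorescent protein (GFP-AAV9). Kmt5b encodes a methyltransferase of histone H4. The sample labels give C57BL6/J for every animal, whereas the design text names a cross of C57BL/6 with C3H and counts fewer control mice than there are GFP libraries, so GFP libraries may share an animal. The promoter that drives the hairpin and the cell types that the virus reached are not given in the sources used here.

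Oligodendrocyte precursor cells are a dividing glial population spread through the cortex. They depend on platelet-derived growth factor, which binds the receptor encoded by Pdgfra, and carry the proteoglycan NG2, encoded by Cspg4. On commitment they lose Pdgfra and NG2 and pass through a short stage marked by Gpr17, Neu4 and Bmp4, before they form myelin. In bulk tissue fewer cells of a stage and less RNA per cell cannot be told apart.

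The stretch of 250 bases before the RefSeq start (build GRCm38.p6) is shown for 3 of the genes. They are a receptor and a membrane protein of the precursor stage, with fitted differences above 0, and a ligand of the committed stage, below 0. Capitals mark the E-box CANNTG, the hexamer that basic helix-loop-helix factors such as Olig2 bind. The pattern reads the same on both strands, though not every hexamer that matches it does.
Pdgfra, chr5:75152001-75152250, plus strand: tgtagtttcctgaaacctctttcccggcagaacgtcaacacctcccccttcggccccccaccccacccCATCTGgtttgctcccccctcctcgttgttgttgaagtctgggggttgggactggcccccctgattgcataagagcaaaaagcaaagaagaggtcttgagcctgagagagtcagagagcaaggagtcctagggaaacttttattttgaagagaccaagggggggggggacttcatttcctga
Lhfpl3, chr5:22745804-22746053, plus strand: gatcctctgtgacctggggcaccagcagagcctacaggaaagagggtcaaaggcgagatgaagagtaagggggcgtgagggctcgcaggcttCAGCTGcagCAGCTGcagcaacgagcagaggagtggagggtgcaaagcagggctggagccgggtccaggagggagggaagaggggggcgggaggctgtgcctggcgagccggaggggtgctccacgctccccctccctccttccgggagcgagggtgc
Bmp4, chr14:46390670-46390919, minus strand: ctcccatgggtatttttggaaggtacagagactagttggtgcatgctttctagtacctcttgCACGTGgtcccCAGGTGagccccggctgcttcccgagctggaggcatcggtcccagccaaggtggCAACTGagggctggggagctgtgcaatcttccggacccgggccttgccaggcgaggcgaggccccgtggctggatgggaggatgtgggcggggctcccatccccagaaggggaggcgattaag
The Pdgfra window held 1 E-box, the Lhfpl3 window 2 and the Bmp4 window 3. An E-box of this kind lay in 66.2% of 32851 RefSeq windows of the same length, so its presence is the usual case. Both Lhfpl3 matches were the form CAGCTG, which 13% of windows held. The SOX-type motifs ACAAAG and ACAATG, searched on both strands, were in none of the 3 windows, against 16.5% and 10.7% of all windows. The RefSeq table matched 7 of the 9 genes, with 8 windows. Among the windows not shown, those of Cspg4 and of a first Matn4 start held 0 E-boxes. Those of Neu4 and of a second Matn4 start held 1 each, and that of Pcdh15 held 2.

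Kmt5b itself, the target of the hairpin, had 68.5, 80.3 and 63.9 CPM (read counts scaled by library size) in Kmt5b shRNA libraries, against 86.5, 79.7 and 80.9 CPM in GFP libraries. The fitted log2 difference was -0.22 ± 0.10 (SE, edgeR adjusted p = 0.303). With 80.3 CPM, the library labelled Kmt5b shRNA replicate 2 lay within the GFP range, so every direction given here rests on the labels. The Kmt5b shRNA libraries held 48828638 to 57486203 counts and the GFP libraries 29490771 to 74723284. As a check on the tissue, 10 genes of cortical excitatory neurons summed to 2830 to 3060 CPM in Kmt5b shRNA and 2500 to 2920 CPM in GFP libraries, and 8 striatal genes to 217 to 234 and 204 to 219 CPM.

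All 6 precursor stage genes had a fitted level above that of the GFP libraries, and all 3 committed stage genes one below it, but no gene of the 9 passed the test. The log2 fold changes, Kmt5b shRNA over GFP, ran from 0.09 to 0.40 in the precursor stage genes (median 0.15) and from -0.39 to -0.11 in the committed stage genes (median -0.18). Over all genes tested the median was -0.02, and 47.3% lay above 0. At an edgeR quasi-likelihood adjusted p under 0.05, 0 of the 9 genes were called, beside 8.46% of all genes, 2.77% higher and 5.69% lower. All 9 are protein-coding genes that share no sequence at the limits used. These are 90% identity over 200 nucleotides, or over 50% of their own length, to another protein-coding gene or a pseudogene. Shorter matches were allowed, such as 123 nucleotides of Gpr17 with Lims2 and 89 of Bmp4 with Gm15217, both at 100% identity. A fit of 12406 genes within these limits called 0.701% of them, so 0 of 9 is near the share for genes of this kind. At an unadjusted edgeR p under 0.05 there was 1 of the 9, Pcdh15, beside 17.4% of all genes. In the fit of genes that share no sequence, Pcdh15 had an unadjusted edgeR p of 0.0529, and 14.6% of genes were under 0.05. DESeq2 likewise called 0 of the 9 genes after adjustment. CPM values of the groups did not overlap for 2 of the 9 genes, Pdgfra and C1ql1, both higher. Over all genes 9.84% were higher without overlap and 12.7% lower without overlap. The same shares among genes that share no sequence are not given here.

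**Figure D1:**
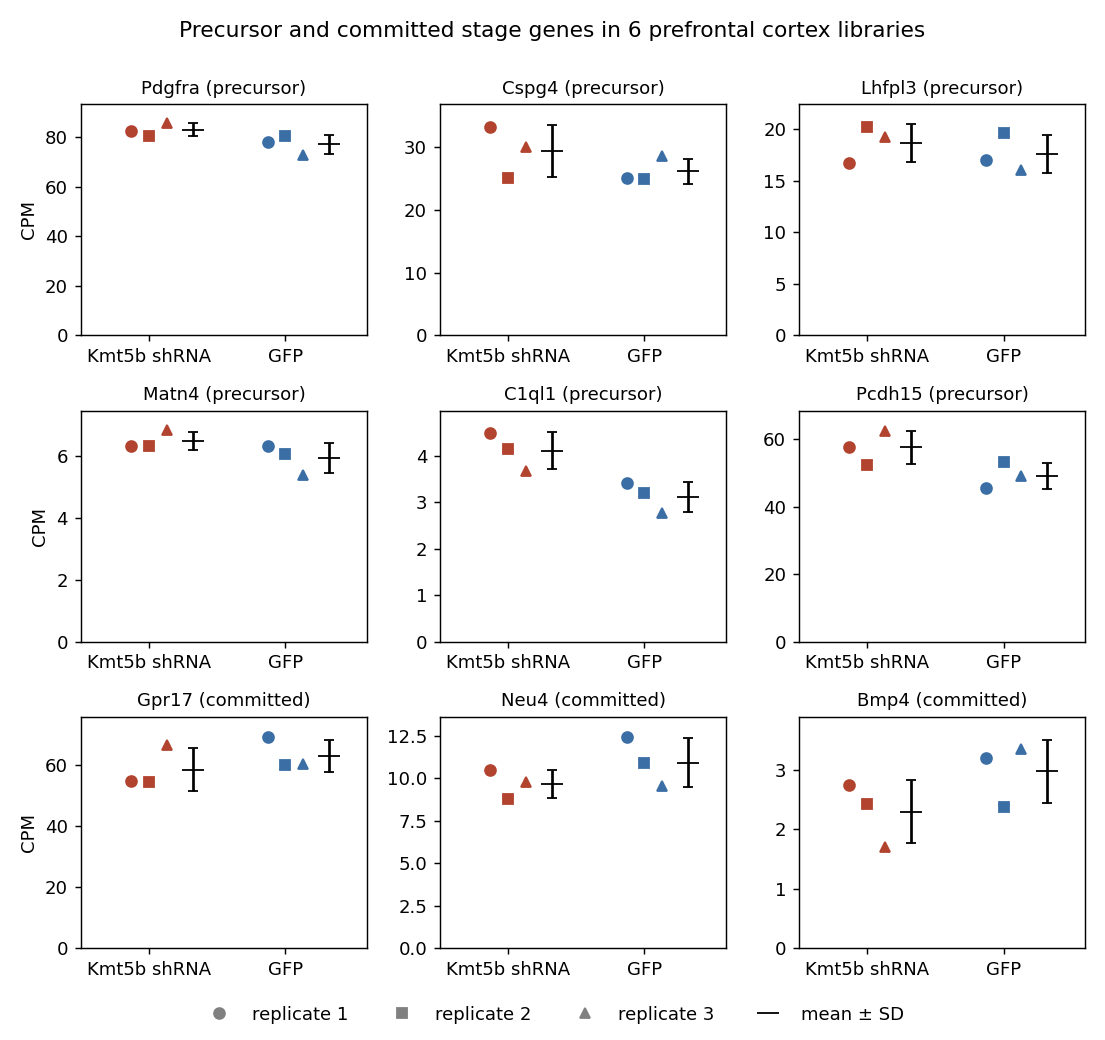
CPM (vertical axis, linear and from 0) of the 9 genes in each library, Kmt5b shRNA in red and GFP in blue, with replicate numbers as symbols and mean ± SD in black (n = 3 each). Pdgfra and C1ql1 are the genes whose groups do not overlap.

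Pdgfra, the receptor for platelet-derived growth factor that keeps precursor cells dividing, lies at 75152292 to 75198215 on chromosome 5 (mm10, plus strand). It had 82.4, 80.5 and 85.6 CPM in Kmt5b shRNA libraries, against 77.9, 80.3 and 72.9 CPM in GFP libraries. Every Kmt5b shRNA library was above every GFP library, though Kmt5b shRNA replicate 2 and GFP replicate 2 were almost level. The means were 82.9 ± 2.58 CPM in Kmt5b shRNA and 77.0 ± 3.78 CPM in GFP libraries (SD, n = 3 each). The fitted log2 difference was 0.11, with a 95% interval from -0.09 to 0.30 (edgeR adjusted p = 0.657). Its two-sided exact permutation p was 0.1, the smallest that 3 against 3 libraries allow.

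Cspg4 encodes the surface proteoglycan NG2, which is found on pericytes as well as on precursor cells. It stood at 33.2, 25.0 and 30.0 CPM in Kmt5b shRNA libraries, against 25.0, 24.9 and 28.5 CPM in GFP libraries. The groups overlapped, and Kmt5b shRNA replicate 1 was the highest library. The log2 fold change was 0.17, with an interval from -0.08 to 0.42 (edgeR adjusted p = 0.541), and it was 0.075 without Kmt5b shRNA replicate 1 and 0.28 without replicate 2.

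Pcdh15, a protocadherin known from the tip links of inner ear hair cells and also expressed in precursor cells, had the smallest unadjusted p of the 9. Its values were 57.8, 52.5 and 62.4 CPM in Kmt5b shRNA libraries, against 45.5, 53.2 and 49.1 CPM in GFP libraries. GFP replicate 2 was above Kmt5b shRNA replicate 2, so the groups overlapped. The log2 fold change was 0.23 with an interval from 0.01 to 0.45, an unadjusted edgeR p of 0.0434 and an adjusted p of 0.263.

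C1ql1, a secreted C1q-like protein that binds the adhesion receptor Adgrb3, had the largest fitted difference of the precursor stage genes. It measured 4.48, 4.15 and 3.68 CPM in Kmt5b shRNA libraries, from 193 to 255 counts, against 3.41, 3.19 and 2.77 CPM in GFP libraries, from 98 to 228 counts. The lowest Kmt5b shRNA library was above the highest GFP library. Its log2 fold change was 0.40 with an interval from -0.03 to 0.82 (edgeR adjusted p = 0.342), with an exact two-sided permutation p again at 0.1.

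Lhfpl3, a membrane protein of the tetraspan LHFP family, and Matn4, a matrilin of the extracellular matrix, had small fitted differences. Lhfpl3 had 16.7, 20.2 and 19.3 CPM in Kmt5b shRNA libraries, against 17.0, 19.7 and 16.1 CPM in GFP libraries, and a log2 fold change of 0.09 (interval from -0.16 to 0.35). Matn4 had 6.33, 6.33 and 6.85 CPM in Kmt5b shRNA libraries, against 6.35, 6.08 and 5.41 CPM in GFP libraries, and a log2 fold change of 0.13 (interval from -0.21 to 0.47). For both genes the groups overlapped, and the edgeR adjusted p was 0.794 for Lhfpl3 and 0.787 for Matn4. With a library left out, the log2 fold change of Lhfpl3 ran from 0.033 (without GFP replicate 3) to 0.18 (without GFP replicate 2), and that of Matn4 from 0.063 (without GFP replicate 3) to 0.19 (without GFP replicate 1).

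Among the committed stage genes, Gpr17 encodes a G protein-coupled receptor that is switched on for a short time before myelin genes. It had 54.5, 54.2 and 66.3 CPM in Kmt5b shRNA libraries, against 69.0, 59.7 and 60.1 CPM in GFP libraries. Kmt5b shRNA replicates 1 and 2 were the lowest libraries, while Kmt5b shRNA replicate 3 lay within the GFP range. The log2 fold change was -0.11 with an interval from -0.34 to 0.12 (edgeR adjusted p = 0.709). Gpr17 overlaps exons of Lims2 on the other strand over 3.62% of its own exon length, and Lims2 had a log2 fold change of -0.11 (edgeR adjusted p = 0.785).

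Neu4, a sialidase that removes sialic acid from glycoconjugates, had 10.5, 8.80 and 9.75 CPM in Kmt5b shRNA libraries, against 12.4, 10.9 and 9.51 CPM in GFP libraries. The groups overlapped through GFP replicate 3. Its log2 fold change was -0.18 with an interval from -0.48 to 0.13 (edgeR adjusted p = 0.628), and it was -0.071 without GFP replicate 1 and -0.27 without GFP replicate 3. Bmp4, a secreted bone morphogenetic protein known to hold back oligodendrocyte maturation, had 94 to 156 counts in Kmt5b shRNA and 73 to 263 in GFP libraries. Scaled, this was 2.74, 2.43 and 1.71 CPM in Kmt5b shRNA libraries, against 3.21, 2.38 and 3.36 CPM in GFP libraries. GFP replicate 2 sat below 2 of the Kmt5b shRNA libraries. Its log2 fold change of -0.39 was the largest of the committed stage genes in size, with the widest interval of the 9, from -0.92 to 0.14 (edgeR adjusted p = 0.499). Without Kmt5b shRNA replicate 3 it was -0.205. The largest overlap with exons of a single gene on the opposite strand was 17.6% of the exon length of Lhfpl3, 4.55% of that of Pdgfra, 3.96% of that of Bmp4 and 2.88% of that of Matn4.

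**Figure D2:**
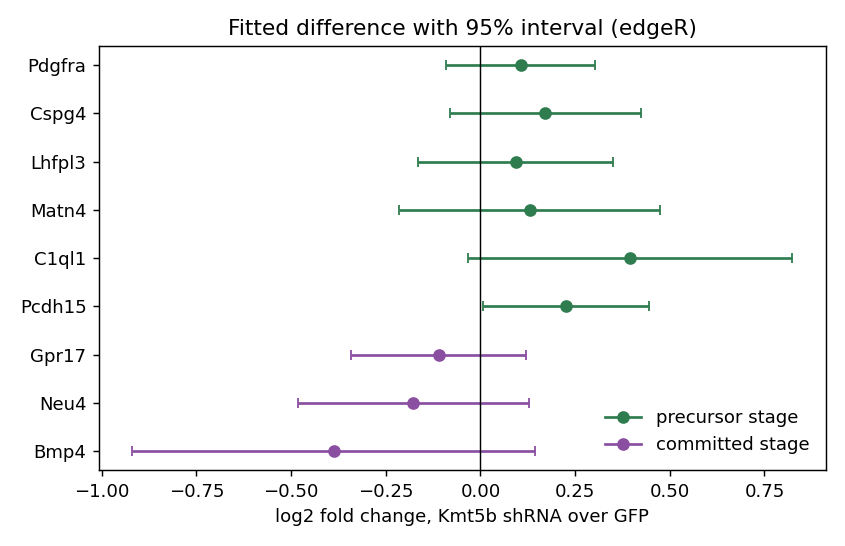
Fitted log2 fold change (horizontal axis, Kmt5b shRNA over GFP) of each gene with its 95% interval from the edgeR fit, precursor stage genes in green and committed stage genes in purple. The 6 green points lie right of 0 and the 3 purple points left of it, and the Pcdh15 interval, from 0.01 to 0.45, is the one that leaves out 0.

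In mm10 (GENCODE M21) the genes other than Pdgfra lie at 56865033 to 56899870 on chromosome 9 (Cspg4), 164389393 to 164405160 on chromosome 2 (Matn4), 102939264 to 102946688 on chromosome 11 (C1ql1) and 73099342 to 74649737 on chromosome 10 (Pcdh15). Gpr17 lies at 31942997 to 31949636 on chromosome 18 and Neu4 at 94020451 to 94028334 on chromosome 1, while Lhfpl3 spans 22746059 to 23275597 on chromosome 5 and Bmp4 46383520 to 46390669 on chromosome 14. All 9 are annotated as protein-coding.

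Per kilobase of annotated exon, Gpr17 had the highest level of the 9 and Bmp4 and Matn4 the lowest. The length is that of the exons of all annotated transcripts together, whichever of them the tissue makes. The order of the genes therefore depends on the annotation as well as on the RNA level. Gpr17 was at 11.2 ± 1.34 CPM per kb in Kmt5b shRNA and 12.1 ± 1.01 in GFP libraries (SD, n = 3 each). Pdgfra followed at 8.27 ± 0.258 CPM per kb in Kmt5b shRNA and 7.68 ± 0.377 in GFP libraries, and Lhfpl3 at 5.83 ± 0.569 and 5.47 ± 0.576. These 3 levels were separated by more than their SDs in both groups. C1ql1, Cspg4, Pcdh15 and Neu4 lay close together, at 2.79, 2.46, 2.42 and 2.09 CPM per kb in Kmt5b shRNA and 2.12, 2.19, 2.07 and 2.36 in GFP libraries. In the GFP libraries neighbours in the order of these 4 levels differed by less than the larger of their SDs, and so they did in Kmt5b shRNA libraries, apart from Pcdh15 against Neu4. Matn4 had 1.26 ± 0.0589 CPM per kb in Kmt5b shRNA and 1.15 ± 0.0943 in GFP libraries, and Bmp4 1.02 ± 0.235 and 1.33 ± 0.237.

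Summed over each stage, the 6 precursor stage genes gave 201, 189 and 208 CPM in Kmt5b shRNA libraries, against 175, 187 and 175 CPM in GFP libraries. The 3 committed stage genes gave 67.7, 65.4 and 77.8 CPM in Kmt5b shRNA libraries, against 84.6, 73.0 and 73.0 CPM in GFP libraries. The precursor sums did not overlap between the groups, and the committed sums did, with Kmt5b shRNA replicate 3 inside the GFP range. The ratio of the precursor to the committed sum was 2.97, 2.88 and 2.67 in Kmt5b shRNA libraries, against 2.07, 2.57 and 2.39 in GFP libraries, without overlap. On the log2 scale the ratio averaged 1.51 ± 0.0789 in Kmt5b shRNA and 1.22 ± 0.158 in GFP libraries (SD, n = 3 each), a difference of 0.28. Pdgfra, Pcdh15 and Gpr17 make up most of these sums. The genes were named with results of these libraries known, so the ratio is a description and carries no test.

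**Figure D3:**
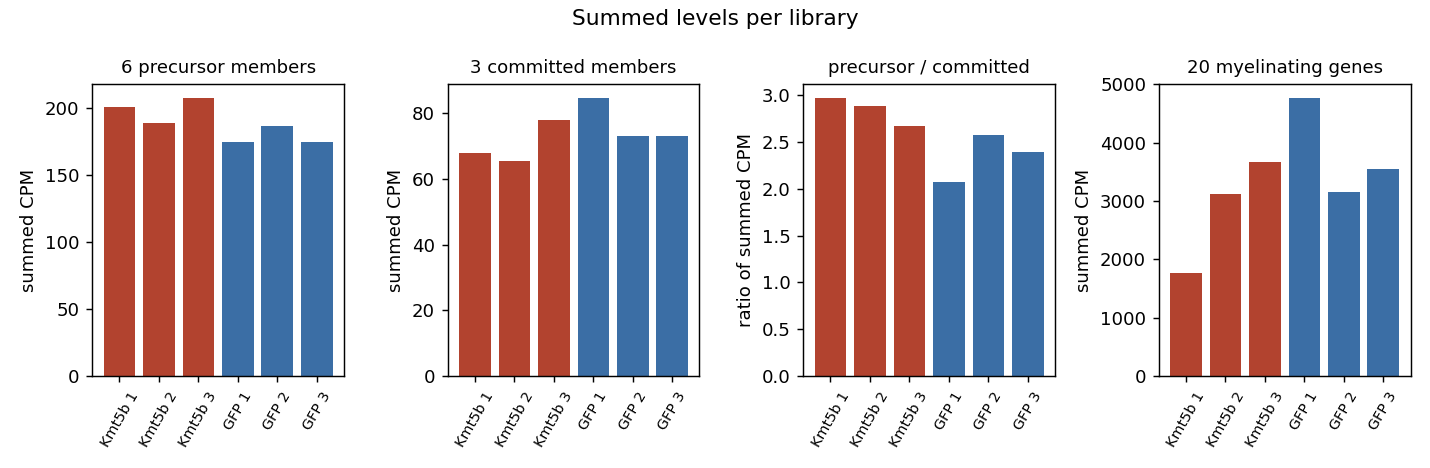
Summed CPM of the 6 precursor stage genes, the 3 committed stage genes and 20 myelinating oligodendrocyte genes, and the ratio of the precursor to the committed sum, 1 bar per library with Kmt5b shRNA in red and GFP in blue and each vertical axis from 0. The ratio lies between 2.67 and 2.97 in Kmt5b shRNA and between 2.07 and 2.57 in GFP libraries, and the myelinating sum is lowest in Kmt5b shRNA replicate 1, at 1770 CPM.

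The highest and lowest values of the 9 genes were spread over the libraries. Kmt5b shRNA replicate 3 held the highest value for 3 genes and the lowest for 1, Bmp4, and GFP replicate 3 held the lowest value for 4 genes and the highest for 1, again Bmp4. GFP replicate 1 was highest for Gpr17 and Neu4. Across the 6 libraries, Pearson's r of log2 CPM was above 0 in 14 of 15 pairs of precursor stage genes (median 0.53, from -0.45 to 0.92) and below 0 in 16 of 18 pairs of a precursor with a committed stage gene (median -0.22, from -0.85 to 0.24). The exception among precursor genes was Cspg4 with Lhfpl3. The points share libraries, scaling and the group difference itself, so these values are a description. Among 15047 other genes with an average log2 CPM of at least 1, those most like Pdgfra over the 6 libraries were Pdgfb, Irf2bp2, Tmem151a, Sdccag8 and Cnot4, with r from 0.992 for Pdgfb to 0.985 for Cnot4. Those most like Gpr17 were Ppfibp2, Tmem252, Itpripl1, Endog and Nipal4, with r from 0.955 for Ppfibp2 to 0.945 for Nipal4. Both lists were picked as the highest r among 15047 genes over 6 libraries. They carry no test and do not show that the genes are regulated together.

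**Figure D4:**
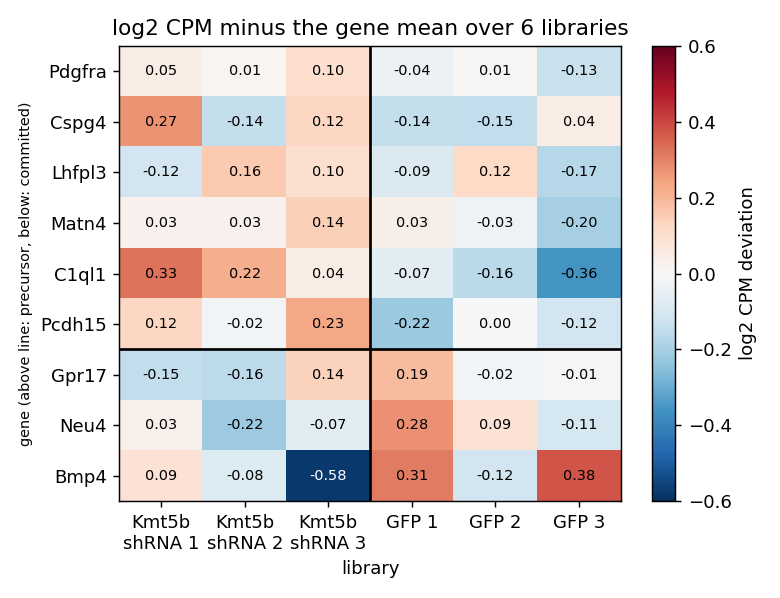
Deviation of log2 CPM from each gene's mean over the 6 libraries (colour and printed value), genes in rows and libraries in columns, Kmt5b shRNA left of GFP. C1ql1 is above its mean in all 3 Kmt5b shRNA and below it in all 3 GFP libraries, and the widest deviation is that of Bmp4 in Kmt5b shRNA replicate 3, at -0.58.

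Other genes of precursor cells, a list of 20, gave 3 higher and 0 lower calls, with 15 above 0 and a median log2 difference of 0.17. This is 3 of 20 beside 2.77% of all genes called higher. Which cells of the bulk tissue gave the RNA of these genes was not tested, so the list is not a measure of precursor cells alone. Olig2, the basic helix-loop-helix factor that specifies the lineage, rose to 12.3, 12.7 and 15.1 CPM in Kmt5b shRNA libraries, against 10.1, 9.30 and 8.12 CPM in GFP libraries (log2 fold change 0.54 ± 0.14 SE, edgeR adjusted p = 0.0211). Cacng4, an auxiliary subunit of AMPA receptors, rose to 16.6, 16.6 and 16.5 CPM in Kmt5b shRNA libraries, against 12.9, 10.1 and 9.93 CPM in GFP libraries (0.59 ± 0.13, adjusted p = 0.00714). Emid1, a secreted protein with an EMI domain, rose to 8.93, 7.12 and 10.5 CPM in Kmt5b shRNA libraries, against 5.01, 4.62 and 6.11 CPM in GFP libraries (0.75 ± 0.18, adjusted p = 0.0145). The groups of all 3 genes were apart. Of the 3, only Cacng4 was called with every library left out in turn. The adjusted p of Olig2 was 0.118 without Kmt5b shRNA replicate 3, and 0.0514 and 0.114 with GFP replicates 2 and 3 left out in turn, and Emid1 0.0621 and 0.0893 without Kmt5b shRNA replicates 1 and 3 and 0.0645 without GFP replicate 2. Vcan, a proteoglycan of the matrix, had the smallest p of the 5 genes below 0 (-0.11 ± 0.13, adjusted p = 0.776). The list had 1 call without Kmt5b shRNA replicate 3, 1 without GFP replicate 2, and 0 when the 12406 genes sharing no sequence were fitted alone. That fit called 0.701% of its genes and none of the 9 markers. Sox10, which acts throughout the lineage, had 14.4, 16.2 and 22.2 CPM in Kmt5b shRNA libraries, against 19.5, 18.0 and 15.6 CPM in GFP libraries (-0.01 ± 0.15, adjusted p = 0.987).

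Genes of later stages were measured in the same fit. Of 15 genes of newly formed oligodendrocytes, 9 had a log2 fold change below 0 (median -0.10). Of the 15, 1 was called higher and 0 lower, beside 2.77% of all genes called higher. The called gene was Tmem2, a cell surface hyaluronidase, at 45.5 ± 5.74 CPM in Kmt5b shRNA and 29.6 ± 2.86 CPM in GFP libraries (SD, n = 3 each; log2 fold change 0.62 ± 0.11 SE, edgeR adjusted p = 0.00163). Tmem2 was not in the fit of genes that share no sequence. Bcas1, a marker of cells starting to make myelin, had 32.8, 50.2 and 60.7 CPM in Kmt5b shRNA libraries, against 78.7, 78.3 and 60.9 CPM in GFP libraries (-0.60 ± 0.22, adjusted p = 0.185). All 20 myelinating genes lay below 0 (median -0.43), with 0 called. At an unadjusted edgeR p under 0.05 there were 4 of the 20, beside 17.4% of all genes in either direction. DESeq2 called 1 of the 20 lower. Mog, a surface protein of myelin, had the smallest p, at 15.2, 25.6 and 30.5 CPM in Kmt5b shRNA libraries, against 41.8, 34.5 and 41.4 CPM in GFP libraries (-0.73 ± 0.24, adjusted p = 0.142).

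The size of the myelin values changed with the libraries included. Kmt5b shRNA replicate 1 summed to 1770 CPM over the 20 genes, against 3120 and 3660 CPM in the other Kmt5b shRNA libraries and 3150 to 4770 CPM in GFP libraries. The median log2 fold change of the list was -0.16 when Kmt5b shRNA replicate 1 was left out, with 17 of 20 below 0, and -0.67 when replicate 3 was, where 4 genes were called lower. It was -0.28 when GFP replicate 1 was left out. The 6 precursor stage genes stayed above 0 and the 3 committed stage genes below 0 with any of the 6 libraries left out.

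**Figure D5:**
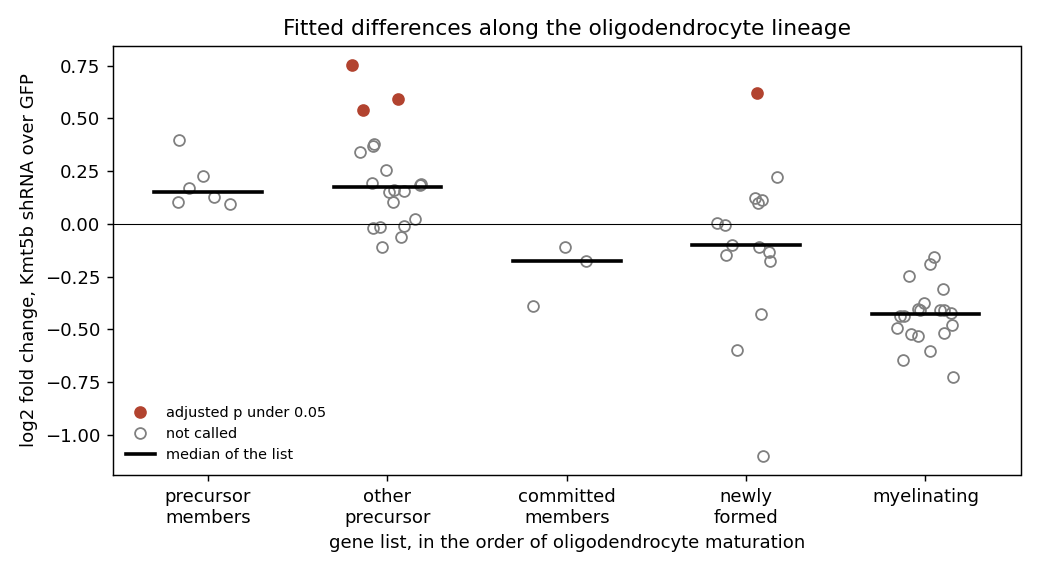
Fitted log2 fold change (vertical axis, Kmt5b shRNA over GFP) of single genes in 5 lists along the oligodendrocyte lineage, filled red where the edgeR adjusted p is under 0.05, with a bar at each median. The medians are 0.15, 0.17, -0.18, -0.10 and -0.43 from left to right.

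The ligands, receptors and relatives of the 9 genes were taken from the same fit, which called 2.77% of all genes higher and 5.69% lower. Of 6 other genes of the PDGF family, 0 were called and the median log2 fold change was 0.03. Pdgfa, the main ligand of the Pdgfra receptor, had 0.04 ± 0.12 (SE, edgeR adjusted p = 0.925), Pdgfc 0.26 ± 0.15 (adjusted p = 0.415) and Pdgfd -0.13 ± 0.19 (adjusted p = 0.827). Of 25 genes of the BMP pathway, 1 was called higher and 0 lower (median 0.08). It was Acvr2a, an activin and BMP receptor, at 91.6 ± 3.69 CPM in Kmt5b shRNA and 69.6 ± 2.54 CPM in GFP libraries (SD, n = 3 each; log2 fold change 0.40 ± 0.09 SE, adjusted p = 0.00986). Acvr2a was not in the fit of genes that share no sequence. None of the 4 secreted inhibitors of BMPs and activins in the list was called. Fst had a log2 fold change of 0.78 ± 0.24 (adjusted p = 0.0606) and Nog 0.57 ± 0.18 (adjusted p = 0.0789), both without overlap between the groups. Chrd had 0.31 ± 0.16 (adjusted p = 0.379) and Grem1 -0.07 ± 0.32 (adjusted p = 0.953), both with overlap. Id3, a transcriptional target of BMP signalling, had the smallest p on the lower side, with a log2 fold change of -0.33 ± 0.12 (adjusted p = 0.144).

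C1ql3, a relative of C1ql1 made by neurons, rose to 110, 122 and 97.4 CPM in Kmt5b shRNA libraries, against 85.8, 68.0 and 78.0 CPM in GFP libraries (log2 fold change 0.51 ± 0.11 SE, edgeR adjusted p = 0.00766). The receptor Adgrb3 had a log2 fold change of 0.05 ± 0.09 (adjusted p = 0.870). C1ql3 was the 1 called gene of 3 tested in that family, and C1ql2 had -0.37 ± 0.49 (adjusted p = 0.803). Matn2, a relative of Matn4, rose by 0.39 ± 0.10 (adjusted p = 0.0205) and was not called without Kmt5b shRNA replicates 1 or 2 or GFP replicate 3 in turn, with adjusted p of 0.104, 0.0689 and 0.120. It was the 1 called gene of 2 tested matrilins. Lhfpl2, a relative of Lhfpl3, rose by 0.45 ± 0.10 (adjusted p = 0.00911), the 1 called gene of 4 in its family. The share called higher over all genes was 2.77%. C1ql3, Matn2 and Lhfpl2 had an adjusted p of 0.053, 0.0629 and 0.0714 among genes that share no sequence. None of 3 other sialidases, 3 tested partners of Pcdh15 in hair cells or 5 receptors related to Gpr17 was called, with medians of -0.12, 0.02 and 0.06. Those with the smallest p on each side were Neu1 (0.20 ± 0.11 SE, edgeR adjusted p = 0.417) and Neu3 (-0.31 ± 0.21, 0.539) among sialidases, and Cib2 (0.22 ± 0.12, 0.388) and Tmie (-0.09 ± 0.23, 0.905) among the partners. Among the receptors they were P2ry12 (0.08 ± 0.10, 0.791), which microglia express, and P2ry14 (-0.21 ± 0.15, 0.549).

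Precursor cells are among the few dividing cells of adult cortex. Of 10 genes of dividing cells, 9 lay below 0 (median -0.585), with 1 called lower and 0 higher, beside 5.69% of all genes called lower. Without GFP replicate 3, 4 of the 10 lay below 0 and 0 were called, and the median was 0.158. Top2a, Cdk1, Birc5, Aurkb and Cenpf were then above 0, at 0.16 to 0.52. The 1 above 0 with all libraries was Ccnb1, a mitotic cyclin (0.43 ± 0.71 SE, edgeR adjusted p = 0.859). Pclaf, a PCNA-binding protein of replicating cells, fell to 0.966, 0.882 and 1.24 CPM in Kmt5b shRNA libraries, against 2.32, 1.40 and 3.91 CPM in GFP libraries (log2 fold change -1.32 ± 0.34 SE, edgeR adjusted p = 0.0221). GFP replicate 3 was the highest library, and the adjusted p was 0.185 without it, and 0.102 and 0.0895 with Kmt5b shRNA replicates 1 and 2 left out in turn. Pclaf was not in the fit of genes that share no sequence. Mki67, which marks cycling cells, had 4.97, 6.24 and 7.58 CPM in Kmt5b shRNA libraries, against 6.74, 7.45 and 21.2 CPM in GFP libraries (adjusted p = 0.512). Over the list the sums were 28.1 to 34.0 CPM in Kmt5b shRNA libraries and 22.7, 33.0 and 69.6 CPM in GFP libraries, the last in replicate 3.

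Pdgfra is also expressed by fibroblasts and Cspg4 by pericytes, so markers of those cells were summed. The 12 pericyte and mural cell genes gave 285 to 308 CPM in Kmt5b shRNA and 293 to 310 CPM in GFP libraries, with 0 of 12 called and -0.04 as its median log2 fold change. The smallest p on each side were those of Abcc9 (0.09 ± 0.13 SE, edgeR adjusted p = 0.837) and Myh11 (-0.51 ± 0.32, 0.518). The 12 fibroblast and meningeal genes gave 161 to 192 CPM in Kmt5b shRNA and 160 to 214 CPM in GFP libraries, with a median of -0.12. Of the 12, 1 was called higher, Fbln1 (0.54 ± 0.13 SE, edgeR adjusted p = 0.0143), beside 2.77% of all genes. The adjusted p of Fbln1 was 0.126 when Kmt5b shRNA replicate 1 was left out and 0.0555 when GFP replicate 2 was, and 0.0796 among genes that share no sequence. Dcn had -0.73 ± 0.21 (adjusted p = 0.0701). The collagen genes Col1a1, Col1a2 and Col3a1 and the pericyte gene Rgs5 were not called. Their part in the values of Pdgfra and Cspg4 was not tested.

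Among other brain cells, astrocyte genes had 3 of 12 called lower, beside 5.69% of all genes. They were the water channel Aqp4 (-0.64 ± 0.12 SE, edgeR adjusted p = 0.00178), and the gap junction genes Gja1 (-0.51 ± 0.12, adjusted p = 0.0114) and Gjb6 (-0.63 ± 0.16, adjusted p = 0.0334). Gja1 was not called without Kmt5b shRNA replicate 3 or GFP replicate 3 (adjusted p = 0.0614 and 0.0533), nor Gjb6 without Kmt5b shRNA replicates 2 or 3 or GFP replicates 1 or 2 (0.151, 0.0609, 0.132 and 0.138). Among genes that share no sequence, 1 of 12 was called, Aqp4, and the adjusted p was 0.0618 for Gja1 and 0.101 for Gjb6. Sox9 had 0.26 ± 0.15 (adjusted p = 0.416). The list summed to 4450 to 5050 CPM in Kmt5b shRNA and 5240 to 5330 CPM in GFP libraries. Interneuron genes had Pvalb (-0.58 ± 0.12, adjusted p = 0.00329) and Npy (-0.46 ± 0.125, adjusted p = 0.0317) called lower of 8, and striatal genes had Pde10a (0.44 ± 0.10, adjusted p = 0.0104) called higher of 8. Over all genes 5.69% were called lower and 2.77% higher. The interneuron list had a median of -0.08, with 3 of 8 genes above 0, 2 of them at an unadjusted edgeR p under 0.05. The striatal list had a median of -0.15, with 6 of 8 genes below 0, so Pde10a went against most of its list. Npy was not called without Kmt5b shRNA replicates 1, 2 or 3 or GFP replicate 2 (adjusted p = 0.127, 0.0708, 0.0978 and 0.148), nor Pde10a without Kmt5b shRNA replicate 1 or GFP replicate 3 (0.0684 and 0.0685). Among genes that share no sequence Pvalb was called, while Npy and Pde10a had an adjusted p of 0.116 and 0.0579. On the other side stood Vip (0.28 ± 0.10, adjusted p = 0.149) and Ppp1r1b (-0.40 ± 0.14, adjusted p = 0.118). Of 10 genes each, excitatory neuron, microglia and endothelial lists had 0 called, with medians of 0.19, -0.01 and 0.03. The excitatory neuron list had 8 of 10 genes above 0. Of these, 5 were at an unadjusted edgeR p under 0.05, beside 17.4% of all genes in either direction. The smallest p of each list belonged to Bcl11b (0.31 ± 0.11, adjusted p = 0.101) and Rorb (-0.25 ± 0.13, 0.346) in neurons, and Aif1 in microglia (-0.16 ± 0.18, 0.745). In endothelium they were Ly6c1 (0.25 ± 0.13, 0.353) and Emcn (-0.21 ± 0.16, 0.597). How far a different share of these cells enters the values of the 9 genes was not tested.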

How the data were processed

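Raw read counts per gene symbol were deposited by the authors, 1 file for each of 6 bulk prefrontal cortex libraries. Groups and replicate numbers come from the sample titles. The labels' protocol speaks of biological duplicates per group, so libraries of either group may share an animal. Every n given here counts libraries, which may come from fewer animals. Stranded total RNA libraries were made after ribosomal RNA removal, per the labels' protocols, which name Cutadapt and TopHat2. STAR, featureCounts, DESeq2 and mm10 were used, per the submitters' processing notes. The strand setting of the counting is not given in the sources used here, so reads of genes on opposite strands may be mixed.

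The test on counts was that of edgeR 4.0.16 under R 4.3.3 (filterByExpr, TMM, robust quasi-likelihood, legacy=TRUE), with Benjamini-Hochberg adjustment over 24419 genes and a threshold of 0.05. The SE is the size of the log2 fold change over the root of its F statistic, and intervals use 95% confidence. CPM uses TMM-scaled library sizes, and log2 CPM in deviations a prior count of 2. P-values measure only the spread between these libraries. Replicates differed by far more than counting noise (chi-square per gene from 16.5 to 40.3).

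Positions and exon lengths come from GENCODE M21. Genes sharing no sequence were protein-coding genes without a BLAST+ 2.17.0 match at 90% identity over 200 nucleotides, or over 50% of their own length, to another protein-coding gene or a pseudogene. All 9 genes were in that set. Members and the 20 other lists, 205 entries in all, were chosen with earlier results of these data known. Named genes were the 9 members and Kmt5b. In each list they were the called genes and that of smallest p in each direction. Sox10, Adgrb3, Pdgfa, Fst, Nog, Chrd, Grem1, Mki67, Lims2, Top2a, Cdk1, Birc5, Aurkb, Cenpf, the collagens and Rgs5 were named beyond that rule. The alternatives were RLE and unscaled library sizes, no filter, DESeq2 1.42.0, a non-robust fit, a replicate block, each library left out, and genes sharing no sequence.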

Additional observations from a re-analysis of the deposited data

How the results depend on the processing

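All 9 genes kept their direction and stayed uncalled under the 13 alternatives run for each, with log2 fold changes from 0.06 to 0.14 for Pdgfra, 0.17 to 0.29 for Pcdh15, 0.31 to 0.48 for C1ql1, 0.075 to 0.28 for Cspg4, 0.033 to 0.18 for Lhfpl3, 0.063 to 0.19 for Matn4, -0.27 to -0.07 for Neu4, -0.20 to -0.04 for Gpr17 and -0.53 to -0.21 for Bmp4. With a library left out, the median was 0.06 to 0.14 over the 9 genes, 0.13 to 0.21 for the precursor stage (0.213 without Kmt5b shRNA replicate 2) and -0.27 to -0.07 for the committed stage, and the difference in log2 ratio was 0.20 to 0.35. Other precursor genes had 1 to 3 calls with a library left out and 0 among genes sharing no sequence. Myelinating genes had 0 to 4 called lower with a library left out, 3 with no filter on low counts, and 1 each with DESeq2, the non-robust fit and the replicate block. Dividing cell genes had 4 to 10 below 0 and a median of -0.92 to 0.158 with a library left out, with 4 below 0 and 0.158 both without GFP replicate 3, and 4 below 0 of 4 tested among genes sharing no sequence. Genes sharing no sequence gave 58 higher and 29 lower calls in place of 676 and 1390. That fit held 12406 genes in place of 24419, and the share called was 0.701% in place of 8.46%. The cause of this drop and of the other changes was not tested. No label ties same-numbered libraries of the groups to each other. Their deviations correlated at -0.12, -0.11 and 0.32 for replicates 1, 2 and 3. The highest value of any pair was 0.41, for Kmt5b shRNA replicate 2 with GFP replicate 1. Not every library thus correlated best with its own number, though the replicate 3 libraries did. Whether libraries share a batch was not tested. With the replicate block 0 of the 9 genes were called. Bmp4, with as few as 73 counts, has the widest interval, so differences of its size could not be told from 0.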
